A study of Mus musculus with 65 samples.

Results

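The Kit and Myb loci were examined for occupancy by LDB1, RAD21, YY1 and CTCF in G1E-ER4 cells, a mouse erythroblast line. The Kit window, chr5:75800000-76080000, takes in the gene and its far upstream enhancer. The Myb window, chr10:20820000-21010000, takes in the gene and the interval towards Hbs1l. All coordinates of peaks are in build mm9, which the submitters' processing notes name, and are counted from 1. Members were all peaks that overlap a window, whatever their protein, and 109 of the 143220 peaks of the series did so, 59 at Kit and 50 at Myb. Peaks that overlapped each other were merged across sets into 21 sites at Kit and 17 at Myb.

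The series used chromatin immunoprecipitation and sequencing (ChIP-seq) in sublines in which a protein carries an auxin-inducible degron (AID), a tag through which auxin triggers its degradation. The LDB1-AID subline gave sets for LDB1, RAD21, YY1 and CTCF in untreated cells and for LDB1 after 4 h of auxin, each combining 2 replicates. The SMC3-AID subline gave sets for LDB1 and RAD21 in untreated cells and after 4 h of auxin, each combining 3 replicates. The 9 sets cover 22 of 65 samples, and the other 43 were not analysed here. All groups share the G1E-ER4 background, a Gata1-null line that carries an inducible form of GATA1. The labels do not say whether GATA1 had been induced, whether a subline is a single clone, or whether replicates were separate cultures.

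The authors combined the replicates in each set before deposit, and every peak is a 400 bp interval without a height. No value below therefore has a replicate error, and read depth is unknown. A site without a peak was not called, which does not show that the protein was absent. Set sizes on the main chromosomes ranged from 24 peaks for RAD21 after auxin in SMC3-AID cells to 54223 for CTCF.

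Kit encodes the receptor for stem cell factor, and Myb encodes a transcription factor that maintains proliferation of blood progenitors. Both genes are active in early erythroid progenitors and are turned down as GATA1 drives maturation. LDB1 does not bind DNA itself but is recruited to enhancers of erythroid genes through GATA1 and TAL1, and it brings distant elements together by self-association. RAD21 and SMC3 are subunits of cohesin, which extrudes chromatin loops and is halted by CTCF, and YY1 is a zinc-finger factor found at promoters and enhancers.

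In the gene order of assembly GRCm38.p6, Kit lies between Pdgfra and Kdr, and Myb lies between Ahi1 and Hbs1l. By the RefSeq strand, Kit is on the plus strand, so positions upstream of it have lower coordinates. Myb is on the minus strand, so its upstream side, towards Hbs1l, has higher coordinates. No gene model in mm9 was used here, so peaks are not assigned to exons, introns or promoters.

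The promoters of both genes, as the 250 bases before the RefSeq start, are shown because they are the genes' own control sequence. Their coordinates are in GRCm38.p6 and cannot be set against the mm9 peaks.
Kit promoter, chr5:75574737-75574986, plus strand: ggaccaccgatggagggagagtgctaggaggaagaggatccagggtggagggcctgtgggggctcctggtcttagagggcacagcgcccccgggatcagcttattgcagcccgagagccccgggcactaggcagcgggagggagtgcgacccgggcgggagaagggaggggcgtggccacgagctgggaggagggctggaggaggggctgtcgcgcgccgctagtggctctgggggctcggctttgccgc
Myb promoter, chr10:21160985-21161234, minus strand: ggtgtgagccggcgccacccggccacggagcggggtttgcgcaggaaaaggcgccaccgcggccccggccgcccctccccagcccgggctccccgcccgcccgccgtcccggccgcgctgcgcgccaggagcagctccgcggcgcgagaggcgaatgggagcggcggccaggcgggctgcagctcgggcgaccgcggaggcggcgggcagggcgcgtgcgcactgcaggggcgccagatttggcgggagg
No base is in capitals, since capitals were to mark motif matches and there were none in either sequence. The motifs searched on both strands were AGATAA and TGATAA (forms of the GATA site), CAGATG and the wider CANNTG that contains it (E-box forms, to which TAL1 dimers bind), and AAGATGG (a YY1 form). Among 32851 RefSeq promoters of this length, AGATAA was present in 9.99%, TGATAA in 7.94%, CAGATG in 14.4%, CANNTG in 66.2% and AAGATGG in 4.49%. G and C made up 70.8% of the Kit sequence and 81.2% of the Myb sequence, against a median of 52.4% over these promoters. The absence of a match says only that these letters are not in this stretch.

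LDB1 occupied 10 separate positions across the Kit window in untreated LDB1-AID cells and 7 across the Myb window. This was 35.7 LDB1 peaks per Mb at Kit and 36.8 at Myb, against 4.07 per Mb over the genome. The Kit sites are named Kit A to Kit J and the Myb sites Myb A to Myb H, in order of increasing coordinate. Myb H was seen only in auxin-treated SMC3-AID cells.

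**Figure D1:**
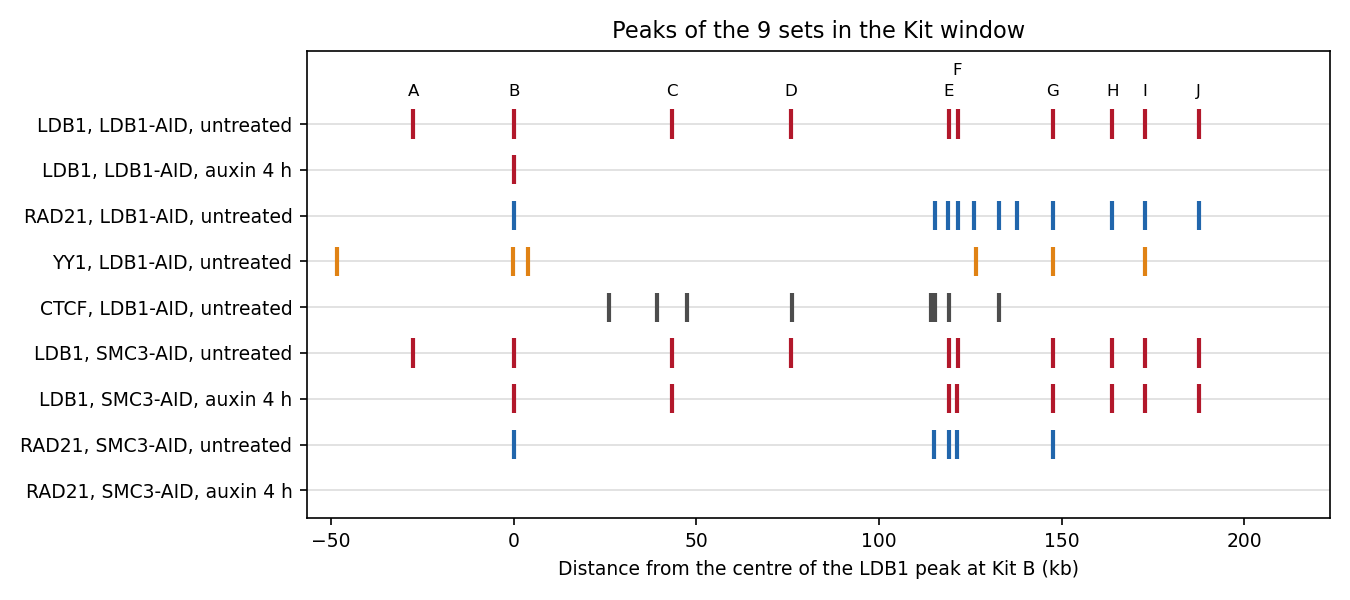
Peak centres of each of the 9 sets in the Kit window, by distance in kb from the centre of the LDB1 peak at Kit B; each tick is a 400 bp peak, coloured by protein, and letters name the LDB1 sites. After auxin the LDB1-AID row holds 1 tick, at Kit B, whereas the SMC3-AID LDB1 row holds 8 of its 10.

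The lower-coordinate side of the Kit window held 4 widely spaced LDB1 sites. Kit A (chr5:75828911-75829310, coordinates of the untreated LDB1-AID peak here and for the sites that follow) carried LDB1 in both untreated sublines and no other protein. It had no LDB1 peak after auxin in either subline. Kit B (chr5:75856427-75856826) was the most widely occupied site of both windows, with a peak in 7 of the 9 sets. It carried LDB1 in all 4 LDB1 sets, RAD21 in both untreated sublines, and YY1, and the 2 sets without a peak there were CTCF and RAD21 after auxin. Kit C (chr5:75899679-75900078) carried LDB1 alone, in both untreated sublines and after auxin in SMC3-AID cells. Kit D (chr5:75932279-75932678) carried LDB1 in both untreated sublines beside a CTCF peak, and no LDB1 peak after auxin in either subline. Gaps between neighbours among these 4 sites ran from 27.52 to 43.25 kb.

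Kit E (chr5:75975483-75975882) and Kit F (chr5:75977920-75978319) formed a close pair, with starts 2.44 kb apart. Kit E was the only LDB1 site at Kit with both RAD21 and CTCF, whose centre lay 14 bp from that of LDB1. Kit F carried LDB1 and RAD21 without CTCF. Both sites held LDB1 in the untreated sublines and after auxin in SMC3-AID cells, and both held RAD21 in each untreated subline.

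The higher-coordinate side of the Kit window held a run of 4 sites, Kit G (chr5:76003975-76004374), Kit H (chr5:76020247-76020646), Kit I (chr5:76029297-76029696) and Kit J (chr5:76043955-76044354). Their position relative to the ends of the gene was not determined. All of them carried RAD21 in LDB1-AID cells, and none carried CTCF. Kit G and Kit I also carried YY1, with centres 4 and 8 bp from that of LDB1. LDB1 was called at each of the 4 sites in both untreated sublines and after auxin in SMC3-AID cells, and at none after auxin in LDB1-AID cells. RAD21 was called in the smaller set of SMC3-AID cells at Kit G only.

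**Figure D2:**
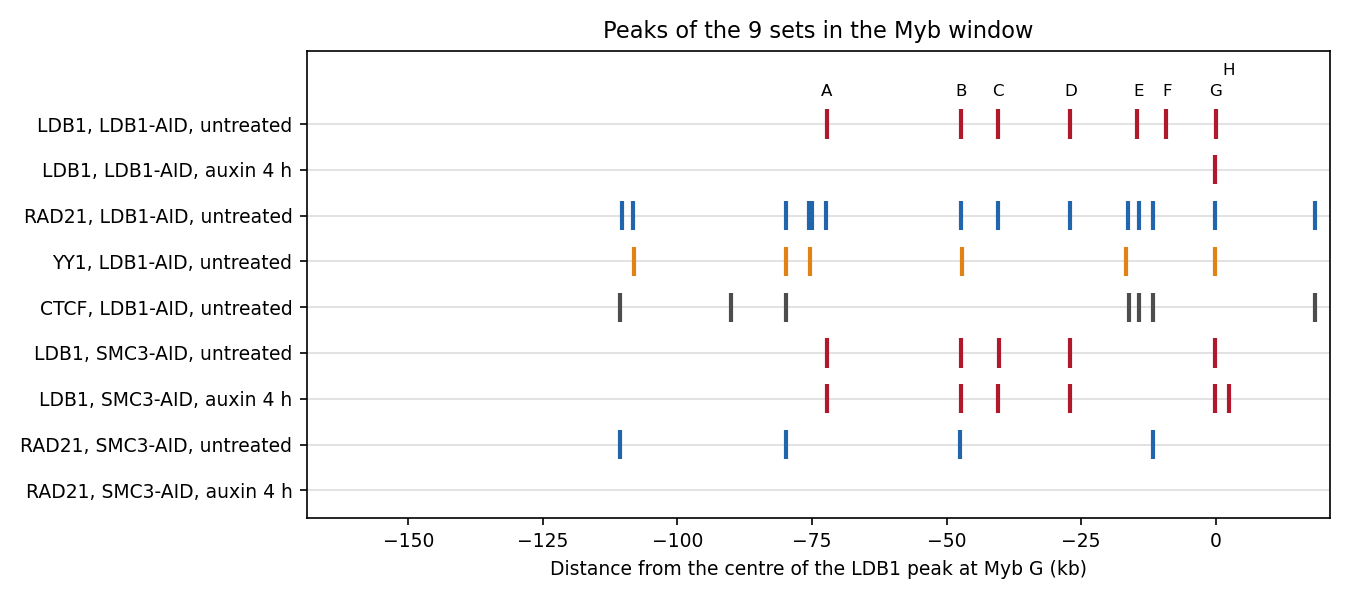
Peak centres of each of the 9 sets in the Myb window, by distance in kb from the centre of the LDB1 peak at Myb G; each tick is a 400 bp peak, coloured by protein, and letters name the LDB1 sites, of which H is present only in the row of auxin-treated SMC3-AID cells. The RAD21 row of untreated LDB1-AID cells has a tick at 6 of the 7 LDB1 sites of that subline.

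At Myb the LDB1 sites lay closer together. Myb A (chr10:20916363-20916762), Myb C (chr10:20948269-20948668) and Myb D (chr10:20961595-20961994) each carried LDB1 and RAD21 without YY1 or CTCF. Their RAD21 peaks were called in LDB1-AID cells and not in SMC3-AID cells. Myb B (chr10:20941253-20941652) carried LDB1, RAD21 in both untreated sublines, and YY1. All 4 of these sites held LDB1 in SMC3-AID cells before and after auxin, and none was called after LDB1-AID auxin.

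The sites nearest to the CTCF peaks inside this window differed between sublines. Myb E (chr10:20974065-20974464) carried LDB1, RAD21 and CTCF in LDB1-AID cells, and Myb F (chr10:20979481-20979880) carried LDB1 alone. Neither was called for LDB1 in SMC3-AID cells, with or without auxin. Myb G (chr10:20988613-20989012) carried LDB1 in all 4 LDB1 sets, with YY1 and with RAD21 in LDB1-AID cells only. Myb H (chr10:20991139-20991538) lay 2.13 kb beyond the Myb G peak and was called for LDB1 only in auxin-treated SMC3-AID cells.

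The targeted protein was examined first, to ask which LDB1 peaks were still called after its degradation. At Kit, 1 of 10 untreated LDB1 peaks overlapped a peak called after 4 h of auxin in LDB1-AID cells (10%, Wilson 95% interval 1.79 to 40.4), and at Myb 1 of 7 (14.3%, 2.57 to 51.3). Over all untreated LDB1 peaks this share was 7.77%, which lies inside both intervals. These intervals, here and below, cover counting error only, and peaks of a locus are not replicates. The peaks called after auxin were at Kit B and Myb G. Their centres lay 94 and 102 bp from those of the untreated peaks, against a median of 38 bp over the 834 such pairs of the genome.

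In LDB1-AID cells Kit B and Myb G shared their set of partners, whereas RAD21 of SMC3-AID cells was called at Kit B and not at Myb G. Each carried RAD21 and YY1 without CTCF in untreated LDB1-AID cells, a combination present at 5 of the 17 LDB1 peaks of the 2 windows (29.4%) and at 7.37% of all LDB1 peaks. The other members with this combination, Kit G, Kit I and Myb B, were not called after LDB1-AID auxin. The share kept was thus 2 of 5 (40%, 11.8 to 76.9), against 29% of the 791 LDB1 peaks with this combination. The combination was singled out because Kit B and Myb G carry it, so this count is a description.

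SMC3 degradation was used to ask which LDB1 peaks were still called after loss of this cohesin subunit. RAD21 itself was called at 5 positions at Kit and 4 at Myb in untreated SMC3-AID cells and at 0 in either window after auxin. With 9 peaks, a count of 0 allows a share kept of up to 33.3%, and the share over the genome was 0.092%. LDB1 kept 8 of 10 peaks at Kit (80%, 49 to 94.3) and 5 of 5 at Myb (100%, 56.6 to 100), against 78.2% over all LDB1 peaks of untreated SMC3-AID cells. Both intervals included the share over the genome.

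The LDB1 peaks not called after SMC3 degradation were Kit A and Kit D, neither of which carried RAD21 in either subline. At 12 LDB1 peaks of SMC3-AID cells in the windows the RAD21 set of LDB1-AID cells also had a peak. All 12 were kept (100%, 75.8 to 100), against 88.2% over the genome. Of the 3 without such a RAD21 peak, Kit C was kept (33.3%, 6.15 to 79.2), against 75% over the genome. Both intervals included the share over the genome, and a link between RAD21 and the peaks kept was not tested. In the other direction, Myb H was the only 1 of 14 LDB1 peaks of auxin-treated SMC3-AID cells in the windows without a counterpart in untreated SMC3-AID cells (7.14%), against 7.23% over the genome.

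**Figure D3:**
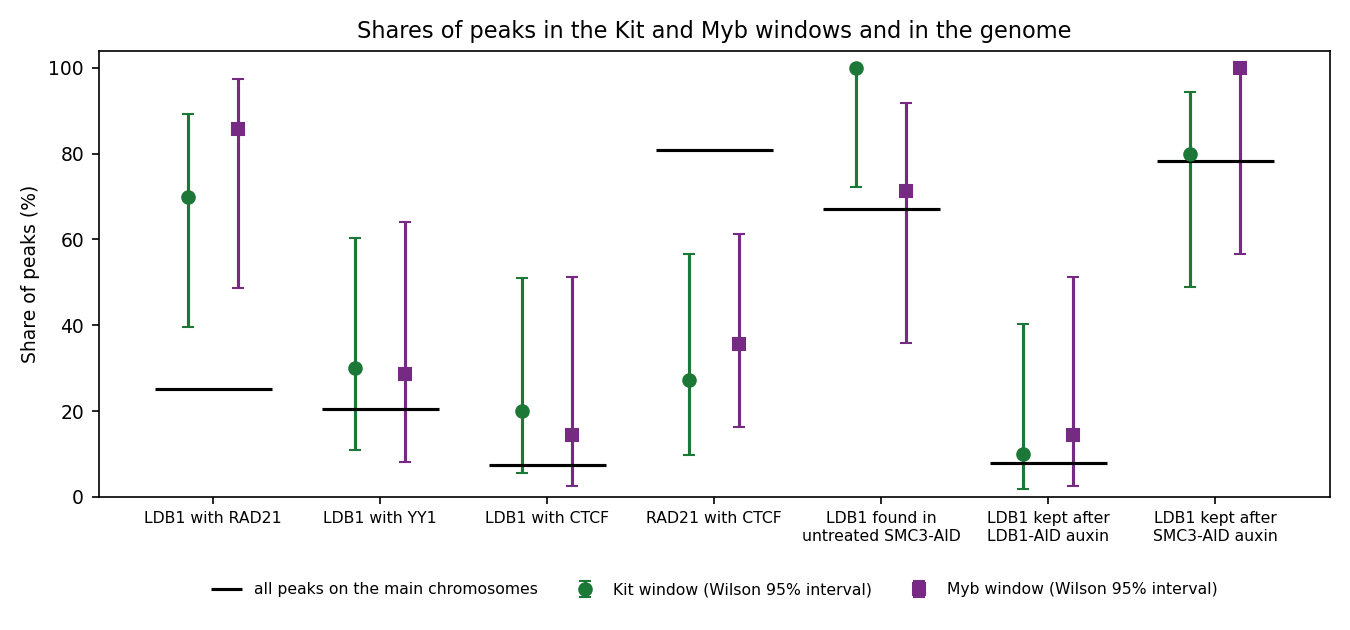
Shares of peaks in percent for 7 comparisons, with the Kit window as circles and the Myb window as squares, Wilson 95% intervals as bars, and horizontal lines for all peaks on the main chromosomes. The RAD21 peaks are those of LDB1-AID cells. The shares of LDB1 peaks with RAD21 lie above the line and those of RAD21 peaks with CTCF below it at both loci, with intervals that do not reach the line, and the intervals of the shares kept after auxin include it.

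In LDB1-AID cells, cohesin was present at most LDB1 sites of both loci. A RAD21 peak overlapped 7 of 10 LDB1 peaks at Kit (70%, 39.7 to 89.2) and 6 of 7 at Myb (85.7%, 48.7 to 97.4), against 25.1% of all LDB1 peaks in untreated LDB1-AID cells. RAD21 peaks of this subline were also denser in the windows, with 39.3 per Mb at Kit and 73.7 at Myb, against 12.6 over the genome. This density was not confined to the windows. The stretches of equal length on the lower and higher side of the Kit window held 12 and 10 RAD21 peaks, against 11 within. At Myb they held 11 and 8, against 14 within. The part of RAD21 density in these shares was not tested. The sites without RAD21 were Kit A, Kit C, Kit D and Myb F. The RAD21 set of SMC3-AID cells was smaller. Of the LDB1 peaks of LDB1-AID cells, it overlapped 4 at Kit (B, E, F and G) and 1 at Myb (B). Over the genome it overlapped 504 of the 10729 LDB1 peaks of untreated LDB1-AID cells. Within SMC3-AID cells, 4 of 10 LDB1 peaks at Kit (40%, 16.8 to 68.7) and 1 of 5 at Myb (20%, 3.62 to 62.4) carried RAD21, against 5.2% over the genome, a share that lies inside the Myb interval.

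YY1 and CTCF were less frequent partners. YY1 overlapped 3 of 10 LDB1 peaks at Kit and 2 of 7 at Myb, together 29.4% (13.3 to 53.1), against 20.4% of all LDB1 peaks. All 5 LDB1 peaks with YY1 in these windows also carried RAD21 (100%, 56.6 to 100), against 44.1% of the LDB1 peaks with YY1 over the genome. CTCF overlapped 2 of 10 at Kit, namely Kit D and Kit E, and 1 of 7 at Myb, namely Myb E, together 17.6% (6.19 to 41), against 7.4% of all LDB1 peaks. At Kit D and Myb E the CTCF centre lay 228 and 218 bp from that of LDB1, so Kit E alone met a rule that 50% of each peak must overlap. LDB1 peaks with none of the 3 proteins numbered 3 of 17 (17.6%), against 61.5% over the genome.

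Seen from cohesin, most RAD21 peaks of LDB1-AID cells at the 2 loci did not overlap CTCF. In LDB1-AID cells 3 of 11 RAD21 peaks at Kit (27.3%, 9.75 to 56.6) and 5 of 14 at Myb (35.7%, 16.3 to 61.2) overlapped CTCF, against 80.9% of all RAD21 peaks. SMC3-AID cells had no CTCF set, so their RAD21 peaks were set against the CTCF peaks of LDB1-AID cells. The counts were then 1 of 5 at Kit (20%, 3.62 to 62.4) and 3 of 4 at Myb (75%, 30.1 to 95.4). The share over the genome was 92.3%, which lies inside the Myb interval. A gap of up to 1 kb raised the SMC3-AID count at Kit to 2, since the peak at chr5:75971365-75971764 lay 38 bp from a CTCF peak. Seen from CTCF, 3 of 8 peaks at Kit (37.5%, 13.7 to 69.4) and 5 of 7 at Myb (71.4%, 35.9 to 91.8) overlapped RAD21, against 49.5% of all CTCF peaks. At Myb, 1 RAD21 peak of LDB1-AID cells (chr10:20878273-20878672) missed a CTCF peak by 14 bp.

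LDB1 was found at 13 of the 25 RAD21 peaks of the windows in LDB1-AID cells (52%, 33.5 to 70), against 8.15% of all RAD21 peaks. Of the 17 RAD21 peaks without CTCF in LDB1-AID cells, 11 carried LDB1 (64.7%, 41.3 to 82.7), against 32.8% of such RAD21 peaks over the genome. They were at Kit B, F, G, H, I and J and at Myb A, B, C, D and G. Of the 8 RAD21 peaks with CTCF, 2 carried LDB1 (25%, 7.15 to 59.1), at Kit E and Myb E, against 2.34%. LDB1 peaks were denser in both windows than over the genome, as given above, and the part of that density in these shares was not tested.

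Sites with RAD21 but no LDB1 were of several kinds. With CTCF they were chr5:75971803-75972232 and chr5:75989313-75989754 at Kit, and chr10:20877859-20878672, chr10:20976887-20977450 and chr10:21007074-21007545 at Myb. With YY1 and no CTCF they were chr5:75982503-75983266 at Kit, and chr10:20880379-20880940 and chr10:20913136-20913706 at Myb. At Myb, RAD21, YY1 and CTCF met at chr10:20908728-20909256. They also met at chr10:20971985-20972992, where YY1 and CTCF each overlapped RAD21 but not each other. RAD21 overlapped no other protein at chr5:75971365-75971764 (in SMC3-AID cells), chr5:75994065-75994464 and chr10:20913711-20914110 (both in LDB1-AID cells). The first of these lay 38 bp from a CTCF peak. The last lay directly beside the RAD21 and YY1 site at chr10:20913136-20913706, and merging across gaps of up to 1 kb joins them. YY1 peaks overlapped LDB1 in 3 of 6 cases at Kit and 2 of 6 at Myb, together 41.7% (19.3 to 68), against 17.1% of all YY1 peaks. The remaining sites carried CTCF alone or YY1 alone. CTCF stood alone at chr5:75882391-75882790, chr5:75895731-75896130, chr5:75903853-75904252 and chr5:75970675-75971074 at Kit and at chr10:20898632-20899031 at Myb. YY1 stood alone at chr5:75860219-75860618 and at chr5:75807974-75808373, the peak nearest the lower edge of the Kit window.

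The CTCF peaks divided both windows into stretches. The longest CTCF-free stretch that touches the Kit window ran 142.6 kb (chr5:75989755-76132366, past the window's end) and held 4 LDB1 peaks, Kit G to Kit J, with 5 RAD21 peaks. At Myb a CTCF-free stretch of 63.3 kb (chr10:20909257-20972592) also held 4 LDB1 peaks, Myb A to Myb D, with 6 RAD21 peaks. Among 54203 stretches between neighbouring CTCF peaks, with a median length of 14.1 kb, 268 held 4 or more LDB1 peaks (0.494%). Longer stretches hold more: 74 of the 3370 stretches at least as long as the one at Kit held 4 or more (2.2%), as did 180 of the 8169 at least as long as the one at Myb (2.2%). Kit A and Kit B shared a stretch of 104.9 kb (chr5:75777471-75882390), and Myb F and Myb G a stretch of 29.7 kb (chr10:20977441-21007145). The median distance from an LDB1 peak to the nearest CTCF peak was 20.3 kb at Kit and 11 kb at Myb, against 6.32 kb over all LDB1 peaks.

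The spacing of LDB1 differed in form between the loci. At Myb all 7 LDB1 peaks of LDB1-AID cells fell into a single chain in which neighbours were within 25 kb, spanning 72.7 kb, and 67 of 6401 chains of the genome held 7 or more peaks. That chain included the gap of 24.89 kb from Myb A to Myb B, close to the limit. At Kit the peaks fell into 4 that stood alone, the pair Kit E and Kit F, and a chain of 4 from Kit G to Kit J over 40.4 kb. The gap of 26.05 kb between Kit F and Kit G, just past the limit, separated the last of these. The median distance to the nearest LDB1 peak was 15.5 kb at Kit and 7.02 kb at Myb, against 14.9 kb over the genome.

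**Figure D4:**
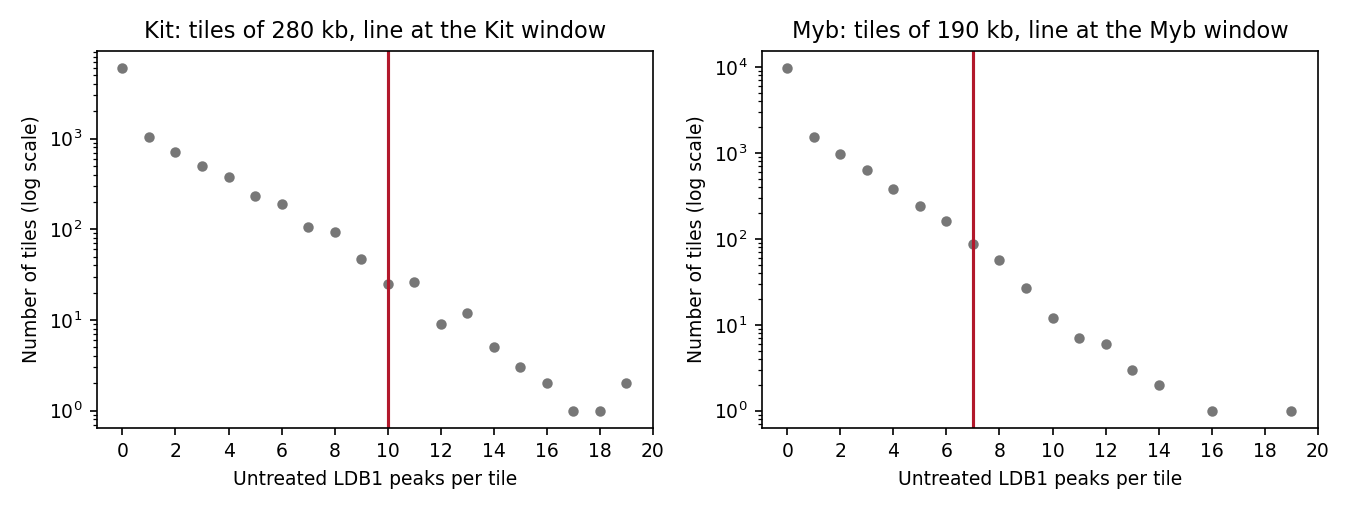
Number of genome tiles (log scale) by their count of untreated LDB1-AID LDB1 peaks, for tiles of 280 kb (left) and 190 kb (right), with the count of the Kit window (10) and of the Myb window (7) as lines. Few tiles lie at or beyond the lines.

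As a measure of density, each window was set beside all tiles of its own length. Of 9409 tiles of 280 kb, 86 held 10 or more untreated LDB1 peaks of LDB1-AID cells (0.914%), and the median tile held 0. Of 13870 tiles of 190 kb, 203 held 7 or more (1.46%). The windows were laid around known sites and the tiles were not, so this is a description of density and no test. For LDB1 in SMC3-AID cells, 0.393% of tiles reached the 10 untreated peaks of Kit and 2.46% the 5 of Myb, and after auxin 0.563% reached the 8 of Kit and 0.764% the 6 of Myb. For YY1, with 6 peaks in each window, the shares of tiles were 7.4% at Kit and 3.51% at Myb. For RAD21 in LDB1-AID cells, 9.18% of tiles reached the 11 peaks of Kit and 0.988% the 14 peaks of Myb, whereas for RAD21 in untreated SMC3-AID cells 11.8% reached the 5 peaks of Kit and 9.68% the 4 peaks of Myb. For CTCF, 29.1% of tiles reached the 8 peaks of Kit and 22.3% the 7 peaks of Myb.

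LDB1 peaks were also present around the windows. The stretches of equal length on the lower and higher side of the Kit window held 3 and 7 LDB1 peaks in untreated LDB1-AID cells, against 10 within. At Myb they held 7 and 5, against 7 within. Just outside the windows, the nearest LDB1 peaks of that set lay 90.8 and 60.6 kb from the edges of the Kit window and 32.7 and 73.1 kb from those of the Myb window. Just inside, the outermost LDB1 peaks lay 28.9 and 35.6 kb from the edges at Kit and 96.4 and 21 kb at Myb. The lowest 57.9 kb of the Myb window held no peak of any set.

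The untreated sublines were compared at the same sites. All 10 LDB1 peaks at Kit were found in untreated SMC3-AID cells (100%, 72.2 to 100), and 5 of 7 at Myb (71.4%, 35.9 to 91.8), against 67% of all LDB1 peaks of LDB1-AID cells. In the other direction all 15 LDB1 peaks of SMC3-AID cells in the windows were found in LDB1-AID cells, against 84.1%. For RAD21, 8 of the 9 peaks of SMC3-AID cells were found in LDB1-AID cells (88.9%, 56.5 to 98), against 94.6%. The exception was chr5:75971365-75971764, which lay 68 bp from the nearest RAD21 peak of the other subline. Of the 25 RAD21 peaks called in the windows in LDB1-AID cells, 8 had a counterpart in SMC3-AID cells (32%, 17.2 to 51.6), against 43.4%.

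**Figure D5:**
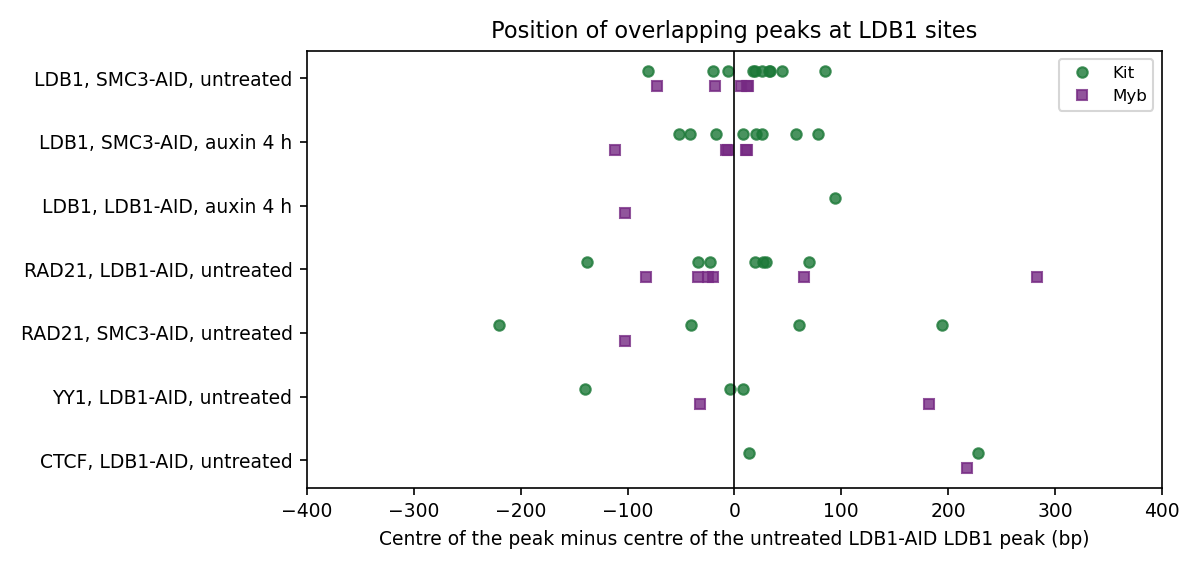
Centre of each overlapping peak minus the centre of the untreated LDB1-AID LDB1 peak, in bp, for 7 sets, with Kit sites as circles and Myb sites as squares; a point is 1 site. LDB1 peaks of SMC3-AID cells lie within 112 bp of the reference, and the CTCF peaks at Kit D and Myb E lie 228 and 218 bp away.

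The centres of the peaks gave a further measure of agreement. LDB1 centres of untreated SMC3-AID cells lay a median of 20 bp from those of LDB1-AID cells at 15 sites (range 6 to 85 bp), against a median of 25 bp over the genome. After SMC3 degradation the median was also 20 bp, at 13 sites (range 6 to 112 bp), against 28 bp over the genome. RAD21 centres of LDB1-AID cells lay a median of 34 bp from the LDB1 centre at 13 sites, with a range of 19 to 283 bp, against 83 bp over the 2697 LDB1 peaks with RAD21. In that set the largest offsets were 283 bp at Myb E and 138 bp at Kit E, which also carried CTCF. RAD21 centres of SMC3-AID cells lay a median of 102 bp away at 5 sites, with a range of 41 to 220 bp, against 111 bp over the genome, and the largest was at Kit F, which carried no CTCF. YY1 centres lay a median of 32 bp away at 5 sites, with a range of 4 to 182 bp, against 120 bp over the genome. At Kit B and Myb B the YY1 centre lay 140 and 182 bp from LDB1, and at Kit G, Kit I and Myb G within 32 bp.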

How the data were processed

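ChIP-seq peak sets of LDB1, RAD21, YY1 and CTCF from 22 samples in 9 groups were used. Titles of the samples gave the groups. The authors deposited 1 list per group, with all its replicates combined, holding only peak positions in bp, and every peak was 400 bp wide. Per the submitters' processing notes, Bowtie2, MACS2 2.2.9.1, deepTools 3.5.1 and mm9 were used. The threshold and the rule that made the consensus are not given in the sources used here, and a stricter threshold would remove sites. Counts over the genome used chromosomes 1 to 19, X and Y.

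Peaks counted as shared when they had at least 1 bp in common. Shares carry Wilson 95% intervals (SciPy 1.17.1, Python 3.11.15). No test was run, since the replicates of each set had been merged before deposit. Overlap counting was tested on simulated data. The members and lists were chosen with earlier results of these data known. The naming rule took every LDB1 site and, of the others, those with 2 or more proteins, at window edges or beside LDB1 with CTCF. With the few sites left, all 38 are named. A site sequence could not be shown, since no mm9 genome was used here. The RefSeq promoter table has 2 Kit entries and 1 Myb entry, and the lower Kit entry was used. Alternatives were other overlap rules, wider windows, wider merging and shifted tiles.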

Additional observations from a re-analysis of the deposited data

How the results depend on the processing

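Across 22 results, 78 alternative values were computed, of which 66 stayed within 1.5 times the reported count and 12, from 9 results, did not. The RAD21 peaks of untreated SMC3-AID cells, an alternative added after the data were seen, overlapped 4 LDB1 peaks at Kit against 7 and 1 at Myb against 6. Over the genome they overlapped 504 of 10729 LDB1 peaks, against 2697 for the RAD21 peaks of LDB1-AID cells. Requiring at least 50% of both peaks left 1 LDB1 peak with CTCF at Kit against 2 and 0 at Myb against 1, and 2 RAD21 peaks of SMC3-AID cells found in LDB1-AID cells at Kit against 4. Midpoints within 500 bp, and likewise a gap of at most 1 kb, gave 2 SMC3-AID RAD21 peaks with CTCF of LDB1-AID cells at Kit against 1. Windows extended by 50 kb on each side take in more peaks by construction, so the numbers of peaks are given too. LDB1 kept after LDB1-AID auxin at Myb was 2 of 9 against 1 of 7, as was LDB1 with CTCF at Myb. RAD21 with CTCF at Kit was 5 of 13 against 3 of 11. For the SMC3-AID RAD21 set it was 3 of 7 against 1 of 5 at Kit and 5 of 6 against 3 of 4 at Myb. In percent, these SMC3-AID shares were 42.9 against 20 at Kit and 83.3 against 75 at Myb. No paired analysis was possible because the replicates of each group were combined before deposit, and for the same reason no replicate could be left out. A stricter peak threshold was not run because the lists hold no score. Depth is unknown, and with at most 14 peaks per comparison and locus a single peak can move a share widely.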
